A study of Mus musculus with 30 samples.

Results

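The cytoplasmic ribosomal protein genes encode the proteins of the large subunit (Rpl genes) and the small subunit (Rps genes) of the ribosome. Chromatin accessibility at these genes was read from ATAC-seq, where a transposase cuts and tags accessible DNA, in cultured mouse splenic natural killer (NK) cells. Members were the peaks assigned to a gene whose name starts with Rpl or Rps followed by a digit, an a or a p, without the Rps6k kinases and without names ending in -ps. There were 119 such peaks among 38526, and they carried 70 of the 14886 gene names in the table. The table classed 68 of the 119 as promoter, 43 as intergenic, 5 as intron and 3 as exon. The name rule also takes in Rps19bp1, which is not a ribosomal protein, and the paralogs Rpl22l1, Rpl7l1, Rpl36al, Rpl37rt and Rps27l.

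The 30 libraries formed 8 groups. KO cells came from GzmbCre Ptger2-/- Ptger4fl/fl mice, which lack 1 prostaglandin E2 (PGE2) receptor gene in the germ line and lose the other where the granzyme B driver of the Cre is active, and WT cells came from C57BL/6J mice. The KO carries the Cre and WT does not, so receptor loss and Cre cannot be told apart. Culture lasted 5 days in IL-2 plus IL15:IL15Ra, after which all cells were kept for 5 h with 100 ng/ml PGE2 or untreated, and the stimulated groups received NK1.1 stimulation, through an activating NK receptor, for the last 4 h. The groups were stimulated KO with PGE2 (4 libraries), stimulated untreated KO (4), unstimulated KO with PGE2 (4), unstimulated untreated KO (3), stimulated WT with PGE2 (4), stimulated untreated WT (4), unstimulated WT with PGE2 (3) and unstimulated untreated WT (4). Replicates are not said to come from separate animals or cultures, so p-values measure only the spread among the libraries at hand, and that spread may be technical.

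Ribosomal protein genes are among the most strongly transcribed genes of growing cells, and their products must be made in matched amounts. Their promoters are typically short and compact, their transcripts begin with a cytosine and a run of pyrimidines (the terminal oligopyrimidine or TOP motif), and this run places their translation under control of the kinase complex mTORC1. Lymphocyte activation raises ribosome production, and Myc is a known activator of ribosomal protein and ribosome assembly genes. PGE2 raises cyclic AMP through the receptors encoded by Ptger2 and Ptger4 and restrains NK cell activity. ATAC-seq reads the accessibility of these genes, not their transcripts.

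Libraries held 8444350 to 20153816 reads in peaks, as recovered from the value of 1 read in each, which is less certain in the 11 libraries left out of the count tests, and member peaks took 0.391% to 0.472% of them. The promoter peak of Ptger2 ranged from 83.6 to 247 normalised read counts over the KO libraries, against 560 to 1109 over the WT libraries, and the exon peak of Ptger4 ranged from 56.2 to 152 in KO, against 434 to 685 in WT. The Ptger4 promoter peak overlapped between genotypes, at 901 to 1605 in KO and 822 to 1455 in WT. The intron and intergenic peaks named for Ptger4 overlapped as well. All 6 NK cell markers examined, among them Ncr1 and Eomes, had a promoter peak, and none of the 4 T cell and 3 B cell markers did. Of 4 myeloid markers only Cd68 had one, at 233 to 705. The Cd68 peak moved with stimulation, at 500 to 705 in stimulated untreated WT against 233 to 255 in unstimulated untreated WT. It also moved with PGE2 in WT, at 394 to 505 in stimulated WT with PGE2 and 357 to 390 in unstimulated WT with PGE2, each against the untreated values just given. In stimulated KO it lay at 596 to 688 with PGE2, against 564 to 693 untreated. The 6 NK markers together held 4638 to 5385 in stimulated untreated WT, below 5678 to 6407 in unstimulated untreated WT. They held 4586 to 5380 in unstimulated WT with PGE2 and 4396 to 5201 in stimulated WT with PGE2. In untreated KO the ranges overlapped, at 4313 to 5281 with stimulation and 4758 to 5363 without. The part of Cd68 and of the NK markers in the results was not tested.

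Promoter sequences from RefSeq (build GRCm38.p6, which is mm10) were matched by symbol to 53 of the 70 genes, and in 49 of them the annotated start lay inside the gene's own promoter peak. The genes without a matched window included Rpl17, Rpl21, Rpl23a, Rpl29, Rpl30, Rpl36, Rpl7, Rpl8, Rplp1, Rps14, Rps20 and Rps29. The windows ran from 250 bases before to 50 bases after the start. A C at the annotated start followed by 4 or more pyrimidines, the form of a TOP motif, was found in 9 of the 49 (18.4%), against 186 of 8322 genes with a promoter peak and a window (2.24%). The carriers were Rpl14, Rpl28, Rpl35, Rpl38, Rplp2, Rps15a, Rps18, Rps27 and Rps6. With a tolerance of 10 bases around the start the shares were 51.0% and 32.0%.

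The ETS core CCGGAAG, searched on both strands, was found in 19 of 49 member windows (38.8%) and in 19.1% of all windows. ATGGCG, a core of the YY1 motif, was found in 28.6% and 16.1%, and its longer form AAGATGGCG, which contains it, in 6.12% and 3.33%. The full cAMP response element TGACGTCA was found in Rpl13, Rpl26, Rpl27a and Rps9 (8.16%, against 3.5% of all windows), and TGACG, a shorter form contained in it, in 44.9% and 33.2%. The E-box CACGTG was found in 8.16% and 10.7%, and TATAAA in 8.16% and 6.04%. Only Rpl22l1 held TATAAA 15 to 40 bases before its start. A match is a description of the letters and not evidence of binding.

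The following 8 windows run from 150 bases before to 20 bases after the start, and were chosen with the values known to show these features. Capitals mark the pyrimidine run at the start and matches to CCGGAAG, TGACGTCA or TATAAA on either strand. Rplp2 (chr7:141447501-141447670, plus strand), Rps6 (chr4:86857348-86857517, minus strand), Rpl38 (chr11:114668430-114668599, plus strand) and Rps18 (chr17:33955646-33955815, minus strand) carry both an ETS core and the pyrimidine run. Rps9 (chr7:3703891-3704060, plus strand) and Rpl26 (chr11:68901416-68901585, plus strand) carry the cAMP response element, Rpl22l1 (chr3:28805358-28805527, plus strand) carries overlapping TATA boxes on both strands, and Rpsa (chr9:120127616-120127785, plus strand) is shown for its change with stimulation.
Rplp2: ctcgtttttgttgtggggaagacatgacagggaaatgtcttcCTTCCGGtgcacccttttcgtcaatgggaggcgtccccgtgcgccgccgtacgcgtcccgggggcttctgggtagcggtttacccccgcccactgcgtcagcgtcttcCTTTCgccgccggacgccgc
Rps6: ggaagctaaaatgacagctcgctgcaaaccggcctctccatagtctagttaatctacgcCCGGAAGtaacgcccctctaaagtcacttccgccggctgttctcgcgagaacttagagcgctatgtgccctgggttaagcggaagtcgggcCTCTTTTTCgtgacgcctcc
Rpl38: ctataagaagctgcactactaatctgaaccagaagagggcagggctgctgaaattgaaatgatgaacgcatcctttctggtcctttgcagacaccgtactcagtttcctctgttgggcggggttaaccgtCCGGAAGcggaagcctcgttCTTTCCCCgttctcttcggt
Rps18: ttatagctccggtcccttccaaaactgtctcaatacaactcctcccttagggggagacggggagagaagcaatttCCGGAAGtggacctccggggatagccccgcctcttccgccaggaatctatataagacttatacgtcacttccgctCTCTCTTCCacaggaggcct
Rps9: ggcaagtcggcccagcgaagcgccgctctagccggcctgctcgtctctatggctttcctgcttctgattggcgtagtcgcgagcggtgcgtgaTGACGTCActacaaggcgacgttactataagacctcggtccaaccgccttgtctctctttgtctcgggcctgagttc
Rpl26: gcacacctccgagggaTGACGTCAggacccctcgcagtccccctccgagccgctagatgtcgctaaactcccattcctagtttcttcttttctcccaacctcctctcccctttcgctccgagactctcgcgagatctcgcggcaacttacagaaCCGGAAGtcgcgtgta
Rpl22l1: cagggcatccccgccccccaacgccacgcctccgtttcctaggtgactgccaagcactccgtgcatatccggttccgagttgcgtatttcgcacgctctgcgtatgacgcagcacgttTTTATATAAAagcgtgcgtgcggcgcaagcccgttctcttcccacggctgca
Rpsa: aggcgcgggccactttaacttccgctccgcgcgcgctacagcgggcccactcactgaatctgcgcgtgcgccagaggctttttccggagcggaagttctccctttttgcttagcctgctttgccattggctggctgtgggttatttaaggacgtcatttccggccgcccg

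In unstimulated untreated WT the member promoter peaks had a median level of 624 normalised read counts, with single peaks from 216 to 1802, and the median of all 12048 promoter peaks was 507. Per kilobase of peak the medians were 435 for the members and 350 for all promoter peaks. Large and small subunit genes lay close to each other, with medians of 434 per kilobase over 35 peaks and 405 over 25. The most accessible per kilobase were Rpl13a, known for its part in a complex that silences inflammatory transcripts (chr7:45128470-45129594, 1535 per kilobase), Rps19, the gene most often mutated in Diamond-Blackfan anaemia in humans (chr7:24883712-24885317, 987), and Rpl37 (chr15:5115934-5117680, 983). The least accessible were a promoter peak of Rps14 on chromosome 18 (144), Rpl4 (chr9:64172223-64173990, 168) and Rpl36 (chr17:56613116-56615832, 188), whose peak is wide and whose level of 511 ± 40.8 (SD, n = 4) is near the median of all promoters. The 51 member peaks outside promoters were far less accessible than the member promoter peaks, with a median of 85.5. The median of all non-promoter peaks was 99.4.

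Stimulation of untreated WT cells moved the promoters of ribosomal protein genes mostly upwards, by small amounts, and far more of them rose than fell. With limma on log2(normalised read count + 1) over all 38525 peaks tested and a Benjamini-Hochberg adjusted p under 0.05, 23 of 68 member promoter peaks rose and 3 fell, against 19.5% and 21.7% of all promoter peaks. Their median log2 change was 0.10, with 51 positive, and that of all promoter peaks was -0.03. Member promoter peaks took 0.638% to 0.663% of the reads in promoter peaks in stimulated untreated WT, against 0.585% to 0.598% in unstimulated untreated WT, and the libraries did not overlap. In bulk cells, a change in the share of cells with an open promoter and a change within each cell cannot be told apart. On the 19 libraries whose whole reads could be recovered, of which 1 is stimulated untreated WT, limma, edgeR and DESeq2 each gave 13 higher. Among large subunit genes 10 of 35 promoter peaks rose and 2 fell, and among small subunit genes 10 of 25 rose and 1 fell.

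Rpl23a, whose product sits at the exit of the nascent chain tunnel, rose most among the member promoters. Its peak (chr11:78182749-78183933) held 563, 583, 516 and 564 normalised read counts in stimulated untreated WT, against 297, 285, 306 and 324 in unstimulated untreated WT. Every stimulated library was above every unstimulated one, and the log2 change was 0.88 ± 0.10 (SE; limma adjusted p = 2.44e-09). Rpl23a, Rpl36 and Rpl38 were singled out after their values were seen.

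Rpsa encodes a small subunit protein also known as the laminin receptor. Its promoter peak (chr9:120127100-120129001) held 1016, 974, 1058 and 1078 in stimulated untreated WT, against 714, 690, 827 and 751 in unstimulated untreated WT, with no overlap. The log2 change was 0.47 ± 0.07 (SE; limma adjusted p = 1.08e-06).

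Rpl38, whose loss in mouse embryos impairs translation of a subset of homeobox transcripts, carries the pyrimidine run shown above. Its promoter peak (chr11:114667910-114670239) held 915, 949, 962 and 945 in stimulated untreated WT, against 759, 638, 671 and 613 in unstimulated untreated WT, with no overlap and a log2 change of 0.50 ± 0.08 (SE; limma adjusted p = 1.16e-06). Rpl36, a large subunit gene, held 792, 701, 762 and 666 in stimulated untreated WT, against 554, 538, 478 and 474 in unstimulated untreated WT, also without overlap (log2 change 0.51 ± 0.08, SE; limma adjusted p = 2.33e-06).

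Rpl22l1, the paralog of Rpl22, held 1125, 1084, 1111 and 1137 in stimulated untreated WT, against 751, 708, 789 and 658 in unstimulated untreated WT, and rose by 0.62 ± 0.08 on the log2 scale (SE; limma adjusted p = 2.76e-08). All 4 stimulated libraries lay above all 4 unstimulated ones. Rpl22 itself had a log2 change of 0.09 ± 0.08 (SE; limma adjusted p = 0.376). The Rpl22l1 peak also holds the start of Gm32950 on the other strand, and is 1 of 8 member promoter peaks with the start of another gene. In all of these but the Rpl18 peak the member's own start lies in the peak too, so the value belongs to both genes.

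**Figure D1:**
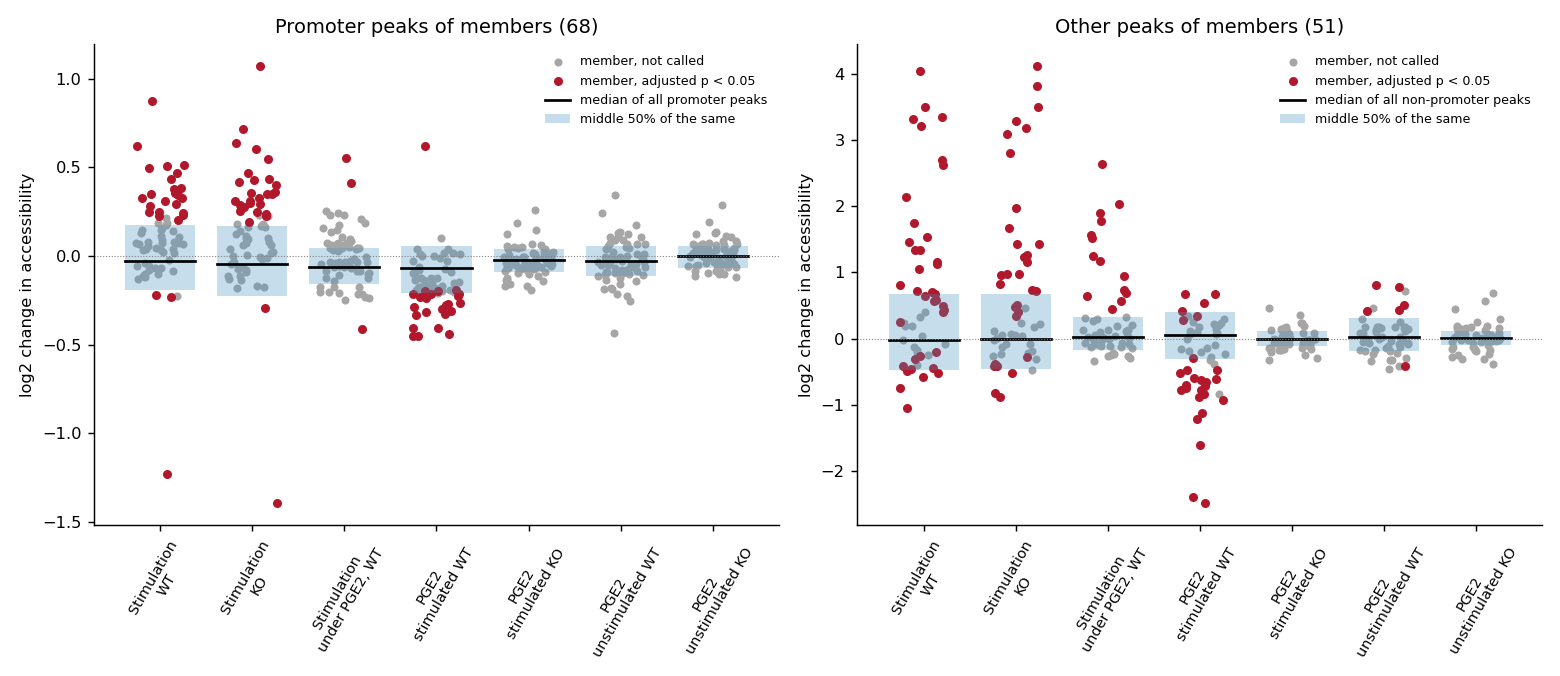
Log2 change in accessibility (y axes) of the 68 promoter peaks (left) and 51 other peaks (right) of ribosomal protein genes in 7 comparisons (x axes), 1 point per peak, red where the limma adjusted p was under 0.05, with the median and middle 50% of all peaks of the class as a line and a band. Member promoters lie above the line for stimulation in WT (medians 0.10 and -0.03) and below it for PGE2 in stimulated WT (-0.18 and -0.07).

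Of the other genes with a textbook role, Rplp0 of the stalk that recruits elongation factors rose by 0.25 ± 0.08 (SE; limma adjusted p = 0.00669), and Rpl11, which with Rpl5 binds Mdm2 when ribosome assembly fails, rose by 0.33 ± 0.09 (adjusted p = 0.00135). Rpl5 (0.13), Rplp1 (0.04), Rplp2 (0.19), Rps19 (-0.02), Rpl13a (0.04) and Rps27l (-0.13) did not pass the test. Rps6, the substrate of the S6 kinases downstream of mTORC1, held 737, 783, 692 and 730.5 in stimulated untreated WT, against 758, 808, 807 and 738 in unstimulated untreated WT, with overlapping libraries (log2 change -0.08 ± 0.09, SE; limma adjusted p = 0.442). Rps19bp1, a regulator of the deacetylase Sirt1 that the name rule takes in, rose by 0.38 ± 0.10 (limma adjusted p = 0.001). Without it and the paralogs, 21 of 63 promoter peaks rose and 3 fell.

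The 3 promoter peaks that fell were those of Rps10 (-1.23 ± 0.15, SE; limma adjusted p = 6.45e-09), Rpl37 (-0.23 ± 0.09; adjusted p = 0.0202) and Rpl18 (-0.22 ± 0.09; adjusted p = 0.0394). The Rps10 peak (chr17:27637210-27637871) held 145, 123, 104 and 111 in stimulated untreated WT, against 329, 294, 250.4 and 263 in unstimulated untreated WT, without overlap. It lies 1966 bases from the annotated start of Rps10. The start itself lies in a peak named for Gm49804 (chr17:27634577-27635779), whose log2 change was 0.00 (adjusted p = 0.989). The Rpl18 peak likewise lies 2398 bases from its start, and the peak at that start, named for Sphk2, had a log2 change of 0.22 (adjusted p = 0.0549). Rpl37 is thus the only one of the 3 whose own start lies in the peak that fell.

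Stimulation of untreated KO cells gave a change of the same form. In KO 26 of 68 member promoter peaks rose and 2 fell, against 17.9% and 23.2% of all promoter peaks, with medians of 0.15 and -0.05. No library is shared between the WT and KO comparisons. In both, 19 promoter peaks rose, which is 82.6% of the 23 in WT and 73.1% of the 26 in KO, and 60 of 68 changes had the same sign. These shares were not computed over all promoter peaks, so they are not shown to be particular to the members. Rps10 fell in both genotypes. Rpl23a held 657, 514, 575 and 499 in stimulated untreated KO, against 205, 313 and 289 in unstimulated untreated KO (log2 change 1.07 ± 0.11, SE; limma adjusted p = 1.62e-10). Rpl7l1, an Rpl7 paralog linked to ribosome assembly, rose in KO (0.43 ± 0.09, SE; limma adjusted p = 0.000116), and its value in WT was 0.19 (adjusted p = 0.0573).

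The difference between genotypes in the effect of stimulation was tested as an interaction over all peaks, and 0 of 119 member peaks passed, against 0.00779% of all peaks. At an unadjusted p under 0.05 there were 0 member peaks, and edgeR and DESeq2 on 19 libraries called 0, where stimulated untreated WT is 1 library, so that those 2 counts add nothing. For Rpsa the difference was 0.07 ± 0.11 (SE), for Rpl38 0.03 ± 0.12 and for Rpl23a -0.20 ± 0.15. A difference that misses the threshold does not show that the genotypes responded alike.

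**Figure D2:**
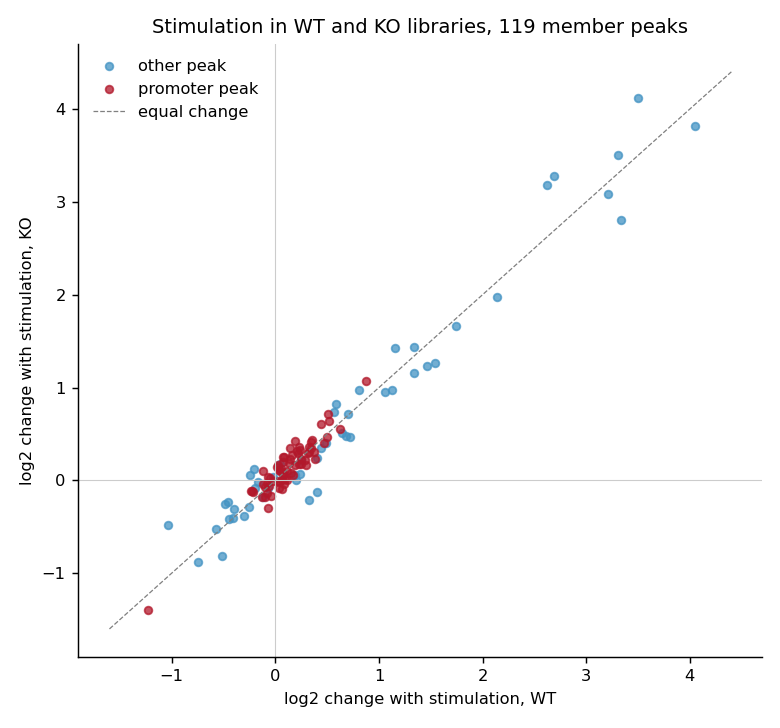
Log2 change with stimulation in untreated KO cells (y axis) against that in untreated WT cells (x axis) for the 119 member peaks, promoter peaks in red and other peaks in blue, with a dashed line where both are equal. Points lie along the line over the whole range, from -1.23 in WT and -1.40 in KO for Rps10 to 4.05 and 3.82 for a distal Rplp1 peak.

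PGE2 in stimulated WT cells lowered a set of ribosomal protein promoters. In stimulated WT with PGE2 against stimulated untreated WT, 23 of 68 member promoter peaks fell and 1 rose, against 19.9% and 7.1% of all promoter peaks, and the median log2 change was -0.18 against -0.07. Negative changes were seen at 59 of the 68. Of the promoter peaks that fell, 14 were among 35 of the large subunit, 8 among 25 of the small subunit and 0 among the 3 of the stalk. The count was 15 without replicate 1 of stimulated WT with PGE2 or without replicate 1 of stimulated untreated WT, and 35 when the fit held only the groups compared. On the 19 libraries with recovered reads limma gave 4 lower, edgeR 5 and DESeq2 5, and none higher. All promoters together moved down in this comparison, and with libraries centred on the median promoter 11 member promoter peaks fell and 1 rose, while all promoters split into 1575 higher and 1573 lower. The members' share of promoter reads was 0.599% to 0.622% in stimulated WT with PGE2, against 0.638% to 0.663% in stimulated untreated WT. This comparison shares the stimulated untreated libraries with the one above, and the values are set side by side only.

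Rpsa held 743, 806, 752 and 738 in stimulated WT with PGE2, below all 4 stimulated untreated WT libraries given above (974 to 1078), with a log2 change of -0.44 ± 0.07 (SE; limma adjusted p = 7.98e-06). Rpl38 held 715, 669, 757 and 703 in stimulated WT with PGE2, against 915 to 962 in stimulated untreated WT (-0.41 ± 0.08; adjusted p = 6.06e-05). Rpl36 held 562, 539, 512 and 522 in stimulated WT with PGE2, against 666 to 792 in stimulated untreated WT (-0.45 ± 0.08; adjusted p = 4.24e-05). In all 3 the groups did not overlap.

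Rps19bp1 had the most negative log2 change of the member promoters, -0.45 ± 0.10 (SE; limma adjusted p = 0.000277). It held 343, 442, 331 and 436 in stimulated WT with PGE2, against 522, 545, 534 and 505 in stimulated untreated WT. Rpl23a changed by -0.41 (adjusted p = 0.00141) and Rpl11 by -0.30 (adjusted p = 0.00442).

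Rpl22l1 did not follow, with 1306, 1073, 1128 and 1082 in stimulated WT with PGE2, against 1084 to 1137 in stimulated untreated WT, and a log2 change of 0.04 ± 0.08 (SE; limma adjusted p = 0.748). The stalk genes Rplp0 (-0.16), Rplp1 (-0.18) and Rplp2 (-0.13) and the genes Rps6 (0.02), Rps19 (-0.08), Rpl5 (-0.09), Rpl13a (-0.13) and Rps27l (0.10) did not pass the test. The 1 peak that rose was the Rps10 peak off its start, at 211, 148, 209.9 and 177 in stimulated WT with PGE2, against 145, 123, 104 and 111 in stimulated untreated WT (log2 change 0.62 ± 0.15, SE; limma adjusted p = 0.000984). The peak at the Rps10 start changed by -0.16 (adjusted p = 0.225).

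**Figure D3:**
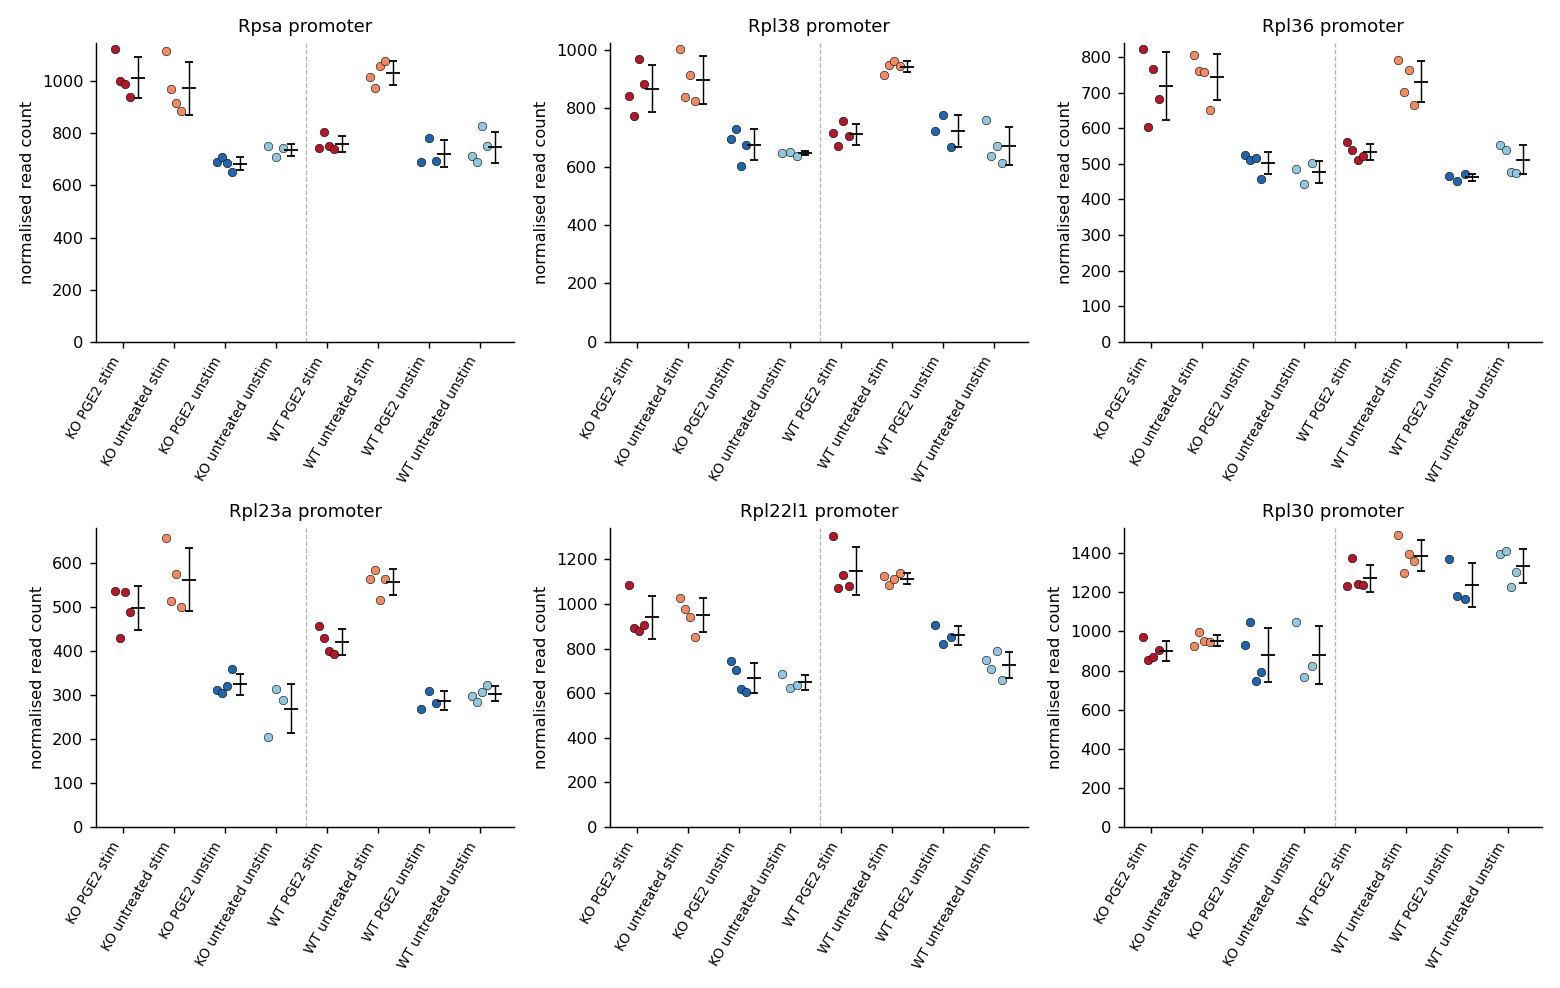
Normalised read counts (y axes, from 0) of 6 promoter peaks in each of the 30 libraries by group (x axes; stim, stimulated; unstim, unstimulated), with the mean and SD of each group at its right. At Rpsa the 4 stimulated WT libraries with PGE2 lie at 738 to 807 and the 4 stimulated untreated WT libraries at 975 to 1078, while stimulated KO libraries lie at 940 to 1124 with PGE2 and 885 to 1117 untreated.

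In KO cells no member peak passed the test for PGE2. In stimulated KO 0 of 119 passed, against 0.0026% of all peaks, with 1 member peak at an unadjusted p under 0.05, and this group could not be fitted by edgeR or DESeq2. In unstimulated KO 0 of 119 passed, against 0.0%, with 6 at an unadjusted p under 0.05 and 0 called by edgeR or by DESeq2. Rpsa held 1124, 1000, 989.6 and 940.1 in stimulated KO with PGE2, against 1117, 970.4, 916 and 885 in stimulated untreated KO, and the groups overlapped (0.06 ± 0.07, SE). Tested directly, the effect of PGE2 in stimulated cells (WT effect minus KO effect) differed at 18 of 119 member peaks, against 20.0% of all peaks. The promoter peaks among them, 3 of 68 against 10.3% of all promoter peaks, were those of Rpsa (-0.50 ± 0.10, SE; limma adjusted p = 0.000538), Rpl36 (-0.40 ± 0.12; adjusted p = 0.0156) and Rpl38 (-0.36 ± 0.11; adjusted p = 0.018). The Rpl38 difference missed the threshold without replicate 3 of stimulated KO with PGE2 (-0.31, adjusted p = 0.0548), and the Rpl36 difference without replicate 4 of stimulated untreated KO (-0.33, adjusted p = 0.0503).

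In unstimulated WT cells limma called 0 of 68 member promoter peaks for PGE2, against 2.2% of all promoter peaks higher and 2.49% lower, and 7 of the 68 had an unadjusted p under 0.05. Centring on the median promoter gave 1 higher and 0 lower, scaling to total reads in peaks 1 higher and 3 lower, and edgeR 1 higher and 1 lower. Over all 119 member peaks limma called 6, edgeR 6 and DESeq2 5. The median log2 change was -0.04, and that of all promoter peaks was -0.03. The effect of PGE2 with stimulation minus its effect without differed at 27 of 119 member peaks in WT, against 25.3% of all peaks. Of these, 7 were among the 68 promoter peaks, against 13.4% of all promoter peaks: Rpl38 (-0.52 ± 0.12, SE; limma adjusted p = 0.000946), Rps12 (-0.41), Rpsa (-0.39), Rps20 (-0.34), Rpl11 (-0.34) and Rpl26 (-0.32) were negative and Rps10 (1.06) was positive. The 6 negative calls numbered 4 when scaled to total reads in peaks, 3 when centred on the median promoter and 1 with edgeR on the 19 libraries. In unstimulated cells the effect of PGE2 differed between genotypes at 2 of 119 member peaks, against 6.18% of all peaks. They were the Rpl7l1 promoter (-0.44 ± 0.13, SE; limma adjusted p = 0.0289) and the Rps15a exon peak described below. The Rpl7l1 call was lost when any of 7 libraries was left out, with adjusted p from 0.0502 to 0.11.

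With PGE2 present, stimulation of WT cells raised 2 of 68 member promoter peaks and lowered 1, against 3.98% and 4.91% of all promoter peaks. The median log2 change was -0.03, and that of all promoter peaks was -0.06. With centring on the median promoter the split was 4 higher and 0 lower among members and 602 against 374 among all promoters, where the deposited scaling gave 480 against 591. The members that rose were Rpl23a, at 457, 428, 399.5 and 394 in stimulated WT with PGE2 against 267, 309.8 and 282 in unstimulated WT with PGE2 (0.55 ± 0.11, SE; limma adjusted p = 0.000298), and Rpl22l1, at 1306, 1073, 1128 and 1082 in stimulated WT with PGE2 against 907, 819.8 and 849.9 in unstimulated WT with PGE2 (0.41 ± 0.09; adjusted p = 0.000564). Neither pair of groups overlapped. The 1 member that fell was Rps23, a protein of the decoding centre, at 614, 665, 673 and 724 in stimulated WT with PGE2 against 682, 1409 and 736 in unstimulated WT with PGE2. These groups overlapped. Without replicate 3 of the unstimulated group the log2 change was -0.08 (adjusted p = 0.741), and without replicate 3 of the stimulated group it was -0.42 (adjusted p = 0.0733). The Rps23 call was also lost without replicate 1 or replicate 2 of the stimulated group (limma adjusted p = 0.119 and 0.0781).

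Between genotypes, in unstimulated untreated cells, 1 of 119 member peaks passed, against 1.73% of all peaks. It was the promoter of Rpl30, a large subunit gene (chr15:34442697-34444282), at 1048, 769 and 826 in unstimulated untreated KO, against 1398, 1412, 1226 and 1302 in unstimulated untreated WT (log2 change -0.61 ± 0.10, SE; limma adjusted p = 9.97e-05). Over all conditions the 15 KO libraries ranged from 747 to 1048 and the 15 WT libraries from 1163 to 1491. It was the only member peak whose KO and WT libraries did not overlap, against 0.267% of all peaks. Rpl30 lies on chromosome 15, which also carries Ptger4, and 6.85% of the peaks on chromosome 15 differed between genotypes, as did 6.24% on chromosome 14, which carries Ptger2. The part of the position in the result was not tested. The Ptger4 promoter peak is at chr15:5243535-5244984, far from Rpl30. Rpl37, on the same chromosome and much nearer to Ptger4 (chr15:5115934-5117680), had a log2 change of -0.16 ± 0.09 (adjusted p = 0.405). This single peak cannot show what part the position plays.

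The member peaks with the largest changes with stimulation were outside promoters. In untreated WT, stimulation raised 27 and lowered 11 of 51 such peaks, against 33.1% and 30.0% of all non-promoter peaks, with medians of 0.40 and -0.01. In untreated KO it raised 24 and lowered 7, against 32.7% and 27.9%. All 24 that rose and all 7 that fell in KO did so in WT, a share that was not computed over all non-promoter peaks. In WT with PGE2 stimulation raised 14 and lowered 0, against 16.6% and 3.3%. PGE2 lowered 21 and raised 6 in stimulated WT, against 20.6% and 26.1%, and raised 5 and lowered 1 in unstimulated WT, against 14.8% and 4.74%. Without replicate 3 of unstimulated WT with PGE2, the number called in that last comparison was 2. Most of the peaks raised by stimulation in untreated WT carried the names Rplp1, Rpl34 or Rpl11, so the counts lean on a few loci. All these non-promoter peaks carry the name that the table gave them, and it does not show which gene they act on.

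The Rplp1 name covers 14 non-promoter peaks spread over 54.7 to 250 kb from the Rplp1 promoter peak. Of these, 9 rose and 2 fell with stimulation in untreated WT. The largest change was at chr9:61778652-61779863, 135 kb from the Rplp1 promoter peak, with Kif23 as the next nearest gene at 137 kb. It held 499.9, 457, 493 and 462 in stimulated untreated WT, against 20.4, 21.4, 34.4 and 40.6 in unstimulated untreated WT, without overlap (log2 change 4.05 ± 0.21, SE; limma adjusted p = 1.01e-18). The values were 75.6, 112, 86.6 and 70.1 in stimulated WT with PGE2, so PGE2 changed the stimulated level by -2.48 ± 0.21 (adjusted p = 4.99e-12).

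The same Rplp1 peak held 406, 385, 526 and 445 in stimulated KO with PGE2, against 442, 443, 489 and 459 in stimulated untreated KO, and these groups overlapped. The difference in PGE2 effect (WT minus KO) was -2.42 ± 0.29 (SE; limma adjusted p = 1.63e-07). The Rplp1 promoter itself changed by 0.04 with stimulation and by -0.18 with PGE2 in stimulated WT, and neither passed the test. A second distal Rplp1 peak, chr9:61713448-61714161, 201 kb from the promoter peak, changed by 3.34 ± 0.36 with stimulation and by -2.39 ± 0.36 with PGE2 in stimulated WT (adjusted p = 4.41e-10 and 1.37e-06). In contrast, chr9:61702127-61703052 fell with stimulation (-0.58) and rose with PGE2 in stimulated WT (0.42), though the second value was -0.01 on the 19 libraries.

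Near Rpl11, an intergenic peak 24.2 kb from its promoter peak (chr4:136076813-136077773) held 171, 130.1, 146 and 180.5 in stimulated untreated WT, against 9.42, 19.4, 20.6 and 16.7 in unstimulated untreated WT (3.21 ± 0.21, SE; limma adjusted p = 1.12e-15). PGE2 moved it in opposite directions in the 2 states of WT cells. Values were 97.4, 97, 94.8 and 112 in stimulated WT with PGE2 (-0.63 ± 0.21; adjusted p = 0.0161) and 27.1, 30.2 and 28.4 in unstimulated WT with PGE2 (0.80 ± 0.23; adjusted p = 0.0122), each against the untreated values just given. The difference between the states was -1.44 ± 0.31 (adjusted p = 0.00072). The change in stimulated cells missed the threshold without replicate 4 of stimulated untreated WT (adjusted p = 0.0565), and the change in unstimulated cells without replicate 1 of unstimulated untreated WT (0.088) or replicate 3 of unstimulated WT with PGE2 (0.0551).

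An intergenic peak 14.1 kb from the Rpl21 promoter peak (chr5:146818602-146819355) held 126, 82.7, 102 and 91.1 in stimulated untreated WT, against 4.71, 8.75, 14.7 and 10.8 in unstimulated untreated WT (3.31 ± 0.35, SE; limma adjusted p = 2.94e-10). In stimulated WT with PGE2 it held 35.8, 31.2, 31.6 and 29, below every stimulated untreated WT library (-1.61 ± 0.35; adjusted p = 0.000324). A peak classed as intron and named for Rpl34 (chr3:130727610-130728170) held 119, 106, 137 and 111 in stimulated untreated WT, against 7.85, 7.78, 13.8 and 9.55 in unstimulated untreated WT (3.50 ± 0.35; adjusted p = 7.38e-11). PGE2 in stimulated WT changed the Rpl34 peak by -0.88 ± 0.35 (adjusted p = 0.0442), a call that was lost when any of 7 of the 8 libraries was left out (adjusted p from 0.0549 to 0.15). With so few reads unstimulated, the log2 changes of these peaks depend on the added 1.

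A peak classed as exon and named for Rps15a (chr7:118103939-118105574) responded to PGE2 in unstimulated WT cells. It held 116, 122 and 93.1 in unstimulated WT with PGE2, against 50.2, 55.4, 82.5 and 70.5 in unstimulated untreated WT, with no overlap (0.78 ± 0.16, SE; limma adjusted p = 0.000541). In unstimulated KO with PGE2 it held 62, 65.5, 65.6 and 82.7, against 80.1, 74.2 and 66.8 in unstimulated untreated KO, and the groups overlapped. The genotype difference in this effect was 0.88 ± 0.23 (adjusted p = 0.0135), and 0.0548 without replicate 3 of unstimulated WT with PGE2. Stimulation raised the peak to 227, 188, 210.1 and 238 in stimulated untreated WT (1.74 ± 0.15; adjusted p = 1.7e-12), and the value with PGE2 in stimulated WT was -0.32 (adjusted p = 0.0863). Exons of ribosomal protein genes have many processed copies in the genome, and how reads with several matches were handled was not stated in the sources used.

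**Figure D4:**
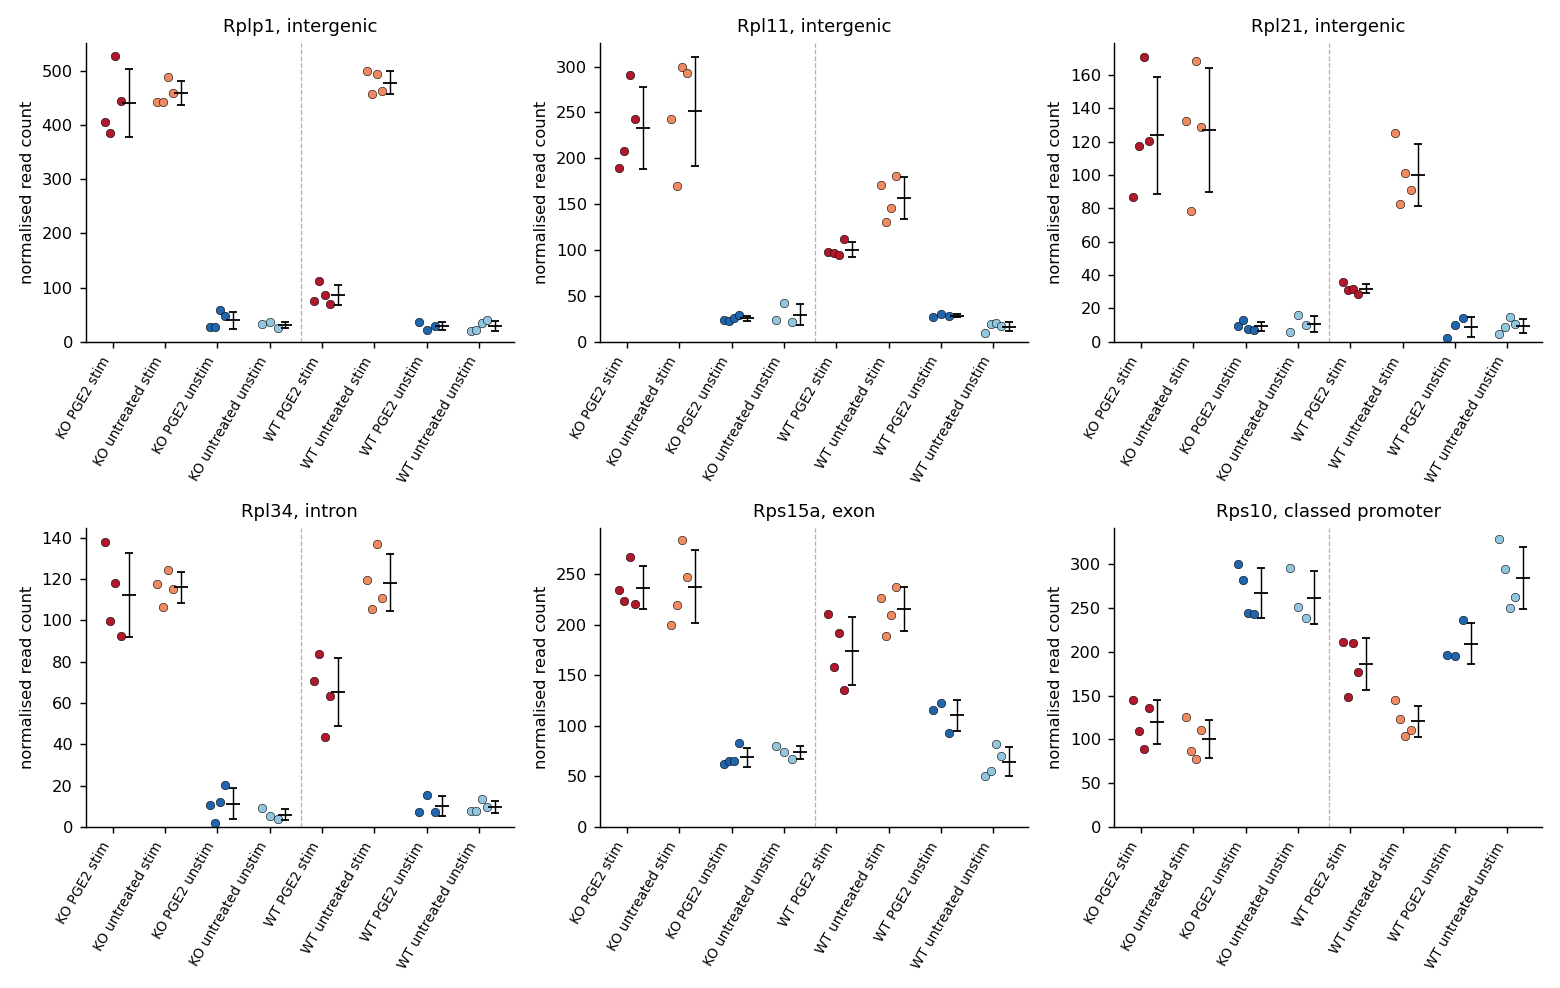
Normalised read counts (y axes, from 0) of 5 member peaks outside promoters and of the Rps10 peak off its start, in each of the 30 libraries by group (x axes; stim, stimulated; unstim, unstimulated), with mean and SD. At the Rplp1 peak stimulated libraries lie at 385 to 526 in KO with PGE2, at 442 to 489 in untreated KO, at 70.1 to 112 in WT with PGE2 and at 457 to 500 in untreated WT.

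Genes that work with the ribosomal proteins were read from 4 lists, each by its promoter peaks. The lists were chosen with earlier results known, and their counts are descriptions. Among ribosome biogenesis genes, stimulation in untreated WT raised 26 and lowered 0 of 40 promoter peaks (median 0.29), and in untreated KO it raised 24 and lowered 0 (0.31). Examples in WT are Tsr1 and Ltv1, both of small subunit assembly, with log2 changes of 0.52 and 0.57 (limma adjusted p = 4.44e-09 and 5.26e-09), and Bop1 of large subunit assembly with 0.53 (adjusted p = 6.61e-08). PGE2 in stimulated WT lowered 25 and raised 0 of the 40 (median -0.27), among them Gnl3, which encodes nucleostemin (-0.82, adjusted p = 3.05e-07), and Fbl, which encodes the rRNA methyltransferase fibrillarin (-0.48, adjusted p = 7.08e-07). All promoter peaks are the background given above for each comparison.

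Translation factors and other TOP genes gave 7 higher and 1 lower of 20 promoter peaks with stimulation in untreated WT and the same counts in untreated KO, and 0 higher and 10 lower with PGE2 in stimulated WT. A promoter peak of the elongation factor gene Eef1a1 (chr9:78488634-78489733) averaged 170 ± 24.7 in stimulated WT with PGE2, against 334 ± 9.50 in stimulated untreated WT, and 170.0 ± 8.96 in unstimulated untreated WT (SD, n = 4 each). Its log2 changes were -0.98 ± 0.12 with PGE2 in stimulated WT and 0.97 ± 0.12 with stimulation (SE; limma adjusted p = 1.11e-08 and 3.7e-09). A second, more accessible Eef1a1 promoter peak (chr9:78480560-78482391) averaged 1528 ± 122 in stimulated WT with PGE2, against 1981 ± 135 in stimulated untreated WT (SD, n = 4 each), with log2 changes of -0.38 ± 0.09 with PGE2 in stimulated WT and 0.48 ± 0.09 with stimulation (SE; limma adjusted p = 7.75e-04 and 1.45e-05). Naca, of the complex that receives nascent chains, fell by 0.36 with PGE2 in stimulated WT (adjusted p = 6.85e-05).

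Mitochondrial ribosomal proteins, which build a separate ribosome, gave 12 higher and 7 lower of 63 promoter peaks with stimulation in untreated WT (median -0.02) and 2 higher and 9 lower with PGE2 in stimulated WT (median -0.08). Among known regulators, stimulation in untreated WT raised 6 and lowered 8 of 24 promoter peaks, and PGE2 in stimulated WT raised 4 and lowered 7. A Myc promoter peak (chr15:61984320-61985977) rose by 0.59 with stimulation and fell by 0.58 with PGE2 in stimulated WT (limma adjusted p = 5.73e-07 and 2e-06). Mknk2, a kinase of the cap-binding factor, moved the other way, with -0.95 and 1.096 (adjusted p = 6.94e-08 and 1.15e-08). Another Myc promoter peak (chr15:61986387-61988277) averaged 552 ± 43.5 in stimulated untreated WT, against 665 ± 55.35 in unstimulated untreated WT (SD, n = 4 each). In stimulated WT with PGE2 that peak averaged 527 ± 20.0. A further Myc promoter peak (chr15:61983149-61983656) averaged 183 ± 21.75, 154 ± 28.2 and 173 ± 11.8 in the same order. Larp1, which binds TOP transcripts, fell by 0.49 with PGE2 in stimulated WT (adjusted p = 0.00108). With PGE2 in unstimulated WT the promoter peaks called were 0 of biogenesis genes and 1 each of the other 3 lists, and with PGE2 in KO there were 0 in any list at rest or with stimulation.

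**Figure D5:**
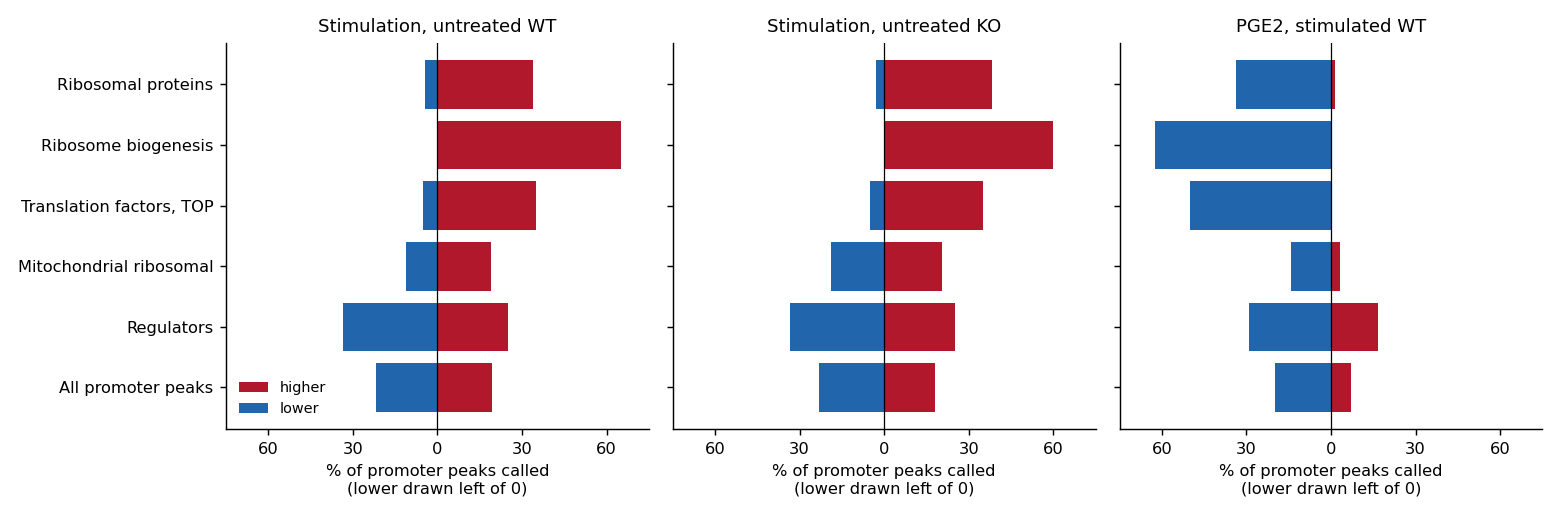
Percent of promoter peaks (x axes) that passed the limma test as higher (red, to the right) or lower (blue, to the left) for ribosomal proteins (68 peaks), 4 other lists and all 12048 promoter peaks (y axis), in 3 comparisons. Ribosome biogenesis genes show the widest bars, with 26 of 40 higher for stimulation in WT and 25 of 40 lower for PGE2 in stimulated WT.

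Some ribosomal protein genes fall outside the name rule because their start lies in a peak named for a neighbour. There were 10 such genes with a RefSeq window, among them Rps3 in a peak named for Snord15a, Rps2 in one named for Snora64 and Rpl23 in one named for Snora21. With stimulation in untreated WT all 10 log2 changes were positive, from 0.07 (Rps28) to 0.43 (Rps3). Of these 7 passed the test, against 19.5% of all promoter peaks called higher. With PGE2 in stimulated WT all 10 were negative, from -0.10 (Rps28) to -0.35 (Rps2), and 6 passed, against 19.9% of all promoter peaks called lower. A further 6 genes of the name pattern had no peak at their start. Rpl17, Rps21 and Rpl37rt have member peaks but no promoter peak. The start of Rps21, in a peak named for Mir3091, changed by -0.11 with stimulation (limma adjusted p = 0.239).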

How the data were processed

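ATAC-seq of 30 libraries of cultured mouse NK cells was analysed from 1 table of 38526 peaks. The values are a signal: per the file headers, the authors divided read counts per peak by DESeq2 size factors. The submitters' processing notes name Trimmomatic 0.39, Bowtie2 2.4.1, MACS2 2.2.7.1 and mm10. Multi-match handling and the gene assignment rule are not given in the sources used here. Other deposited columns give each peak's position, width, class and gene.

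From these values, log2(value + 1) was fitted with limma 3.58.1 in R 4.3.3, with 1 mean per group over all 30 libraries, for 38525 peaks with a mean of at least 10. P-values are two-sided and Benjamini-Hochberg adjusted over all peaks per comparison. The fit was tested on simulated data with known changes. edgeR 4.0.16 and DESeq2 1.42.0 were run on the 19 libraries whose whole reads were recovered (tolerance 0.05 of a read), and limma on those 19 was added after seeing the data. Other alternatives were pseudocount 5, other minimum means, other scalings, fits on fewer groups, the replicate block and leaving out each library.

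Members and lists were chosen with earlier results of these data known. Named peaks were the promoter peaks of genes with a well-known role, up to 4 largest called changes each way per comparison, the 3 most and 3 least accessible promoters per kilobase, and every call where fewer than 6 passed. Peaks outside this rule were named after their values were seen. Some items are not reported here.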

Additional observations from a re-analysis of the deposited data

Results flagged for a closer look

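The effect of PGE2 in stimulated cells (WT effect minus KO effect) differed by limma at the promoters of Rpsa (-0.50, adjusted p = 5.38e-04), Rpl36 (-0.40, adjusted p = 0.0156) and Rpl38 (-0.36, adjusted p = 0.018). It also differed at the distal Rplp1 peak (-2.42, adjusted p = 1.63e-07) and the Rpl21 peak (-1.58, adjusted p = 0.0205). The Rpl21 difference missed the threshold when either of 2 libraries was left out (adjusted p = 0.054 and 0.0591).

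The effect of PGE2 in WT (with stimulation minus without) differed by limma at the promoters of Rpl38 (-0.52, adjusted p = 9.46e-04) and Rpsa (-0.39, adjusted p = 0.00644) and at the Rps10 peak off its start (1.06, adjusted p = 4.62e-04). Outside promoters it differed at the distal Rplp1 peak (-2.48, adjusted p = 2.07e-07), the Rpl11 peak (-1.44, adjusted p = 7.2e-04) and the Rps15a exon peak (-1.10, adjusted p = 2.96e-04). In unstimulated cells the effect of PGE2 (WT minus KO) differed at the Rpl7l1 promoter (-0.44, adjusted p = 0.0289) and the Rps15a exon peak (0.88, adjusted p = 0.0135).

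Single libraries stood apart from the other 3 of their group at 4 peaks. Rpl22l1 was at 1084 in replicate 1 of stimulated KO with PGE2, and the others were at 879 to 905. Rps19bp1 was at 606 in replicate 2 of stimulated untreated KO, and the others were at 461 to 486. Rpl30 was at 1375 in replicate 2 of stimulated WT with PGE2, and the others were at 1231 to 1240. The Rpl11 intergenic peak was at 112 in replicate 4 of stimulated WT with PGE2, and the others were at 94.8 to 97.4. These came from 96 groups of 4 examined over 16 peaks, and chance flags about 1 in 20. The groups of 3 libraries, unstimulated untreated KO and unstimulated WT with PGE2, were not examined in this way. In unstimulated untreated KO, replicate 2 had 26 peaks at 0, against 2 and 5 in replicates 3 and 4. It held 9241985 reads in peaks, against 20097949 and 17684832. Stimulation in KO, PGE2 in unstimulated KO and the comparison of genotypes all use that library.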

How the results depend on the processing

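Of 107 named values, 59 passed the test under every alternative that gave a value, and 3 reversed under any. On the 19 libraries with recovered reads, limma (added after seeing the data), edgeR and DESeq2 called 39, 38 and 38 member peaks for stimulation in WT (64 on all libraries), 16, 19 and 19 for PGE2 in stimulated WT (51), 7, 8 and 8 for PGE2 by stimulation in WT (27), and 0, 1 and 1 for PGE2 by genotype unstimulated (2, and 1 with only the groups compared). Promoter peaks higher with stimulation in WT numbered 13 with each, and those lower 2, 1 and 1 (3, and 6 with the most accessible peak per gene). Promoter peaks lower with PGE2 in stimulated WT numbered 4, 5 and 5 (23, 11 when centred, 35 with only the groups compared), and those higher 0, 0 and 0 (1). These 19 include 1 stimulated untreated WT library and none of stimulated KO with PGE2, so PGE2 in stimulated KO and its genotype difference could not be fitted there. In the same order, Rpl4 for stimulation in WT was -0.014, -0.014 and -0.006 (0.24), and the Rplp1 peak from 61702127 for PGE2 in stimulated WT was -0.010, -0.008 and -0.018 (0.42). The Rps14 intron peak was -0.003 with limma and -0.007 with DESeq2 (0.34). The causes were not tested, beyond the fewer libraries.

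Leaving out 1 library at a time gave 58 to 63 calls for stimulation in WT, 51 to 59 in KO, 40 to 47 for PGE2 in stimulated WT, 2 to 8 in unstimulated WT, 0 to 3 for PGE2 by genotype unstimulated, 1 to 3 promoter peaks lower with stimulation in WT and 15 to 21 lower with PGE2 in stimulated WT. With the replicate block the calls were 68 for stimulation in WT, 61 for PGE2 in stimulated WT and 36 for PGE2 by stimulation in WT, where negative promoter calls numbered 12 (6 without the block). Each library's deviations from its group mean were correlated with those of the libraries in other groups. For same-numbered libraries these correlations ranged from -0.021 to 0.526, with a median of 0.065 (39 of 99 pairs over 0.1). For differently numbered libraries the median was -0.023 (26 of 294 pairs over 0.1). Of 30 libraries, 26 correlated best with their own number, so libraries of 1 number may share an effect. The main fit held no block because the numbers are not stated to pair samples, and what they stand for was not tested. Peaks with few reads, such as Rpl34 and Rpl21 without stimulation, carry the widest errors.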
